A study of Mus musculus with 12 samples.

Results

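The nuclear-encoded subunits of mitochondrial complex I were examined in the left ventricle of cmGch1 KO and WT mice. The members were 35 genes taken by symbol. Each was matched to 1 Ensembl identifier among the 26921 genes of the deposited count table through the GENCODE M21 annotation. The rule used no measured value, though members and rule were chosen with earlier results of these data known. They comprise 6 core subunits of the peripheral arm, 9 accessory subunits of that arm, 9 of the proximal and 10 of the distal part of the membrane arm, and the acyl carrier protein. The list does not hold every nuclear subunit of the complex. The 35 genes lie on 15 chromosomes, with 5 of them on chromosome 17.

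Bulk RNA sequencing had been done on 6 WT and 6 cmGch1 KO hearts from mice aged 16 weeks, to ask how loss of tetrahydrobiopterin synthesis in cardiomyocytes alters cardiac gene expression. WT mice carried floxed Gch1 alleles without Cre. cmGch1 KO mice carried the same floxed alleles together with a Cre transgene driven by the α-MHC promoter, so that Gch1, which encodes the first enzyme of tetrahydrobiopterin synthesis, is removed from cardiomyocytes and kept in the other cells of the ventricle. The labels name the tissue as heart, and the left ventricle comes from the study's methods. Nothing in the labels says how animals relate to each other across libraries, so each library was taken as 1 animal, and p-values measure the spread between these libraries.

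Complex I accepts electrons from NADH, passes them along a chain of iron-sulphur clusters to ubiquinone and pumps protons across the inner mitochondrial membrane. Its core subunits are shared with bacteria: those that carry the flavin and the clusters are encoded in the nucleus, and the proton-pumping ones in the mitochondrial genome. The accessory subunits surround this core and serve its assembly and stability. The heart, which draws most of its ATP from oxidative phosphorylation, is rich in the complex.

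The promoters of these genes were searched for short motifs of factors known to act on respiratory chain genes. The search was made after the members were seen to vary together across libraries, as described further on. A link between the motifs and that variation was not tested. RefSeq promoters (GRCm38.p6, 250 bases before to 50 after the start) were found for 32 members; Ndufa2, Ndufb9 and Ndufs1 were not among them. For Ndufa1 and Ndufa3 the bases after this start were not found in a GENCODE M21 transcript of the gene. Both strands were searched, and matches of different motifs may overlap. The letters GCGCANGCG, bound by nuclear respiratory factor 1, stood in 8 of the 32 (25.0%) and in 7.03% of all 27025 genes with a promoter. AAGATGGCG, a YY1 motif, stood in 5 (15.6%, against 1.64%), CCGGAAG, an ETS motif of the kind bound by GABP, in 4 (12.5%, against 9.93%), and AAGGTCA, an oestrogen-related receptor half-site, in 3 (9.38%, against 5.38%). At least 1 of the 4 motifs was present in 17 members (53.1%) and in 21.2% of all genes. Promoters of the members were richer in G and C, with a median of 59.0% against 52.8%. A match is a description of the letters and no evidence of binding.

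The stretches below lie before the start and outside any annotated exon, and capitals mark the matches. Ndufa11 and Ndufb4 stand for the nuclear respiratory factor 1 motif, Ndufb6 for the ETS motif on the opposite strand and Ndufb2, the member with the lowest level per length, for the oestrogen-related receptor half-site. Ndufa9, the member with the smallest p-value, and Ndufb8, the one with the highest level per length, had no match in the stretch shown. Ndufa9 had a YY1 match elsewhere in its promoter, and Ndufb8 had no match to any of the motifs.
Ndufa11, chr17:56717686-56717761, plus strand: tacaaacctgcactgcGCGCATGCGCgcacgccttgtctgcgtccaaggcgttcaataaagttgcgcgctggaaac
Ndufb4, chr16:37654454-37654573, minus strand: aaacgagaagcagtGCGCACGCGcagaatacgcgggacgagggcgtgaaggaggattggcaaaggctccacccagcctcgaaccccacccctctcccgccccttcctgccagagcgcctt
Ndufb6, chr4:40279552-40279671, minus strand: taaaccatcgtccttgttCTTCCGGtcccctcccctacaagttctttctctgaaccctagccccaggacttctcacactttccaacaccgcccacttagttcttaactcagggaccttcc
Ndufb2, chr6:39592364-39592483, plus strand: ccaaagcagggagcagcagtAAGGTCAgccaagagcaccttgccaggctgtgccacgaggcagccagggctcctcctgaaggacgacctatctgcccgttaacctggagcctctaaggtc
Ndufa9, chr6:126849145-126849264, minus strand: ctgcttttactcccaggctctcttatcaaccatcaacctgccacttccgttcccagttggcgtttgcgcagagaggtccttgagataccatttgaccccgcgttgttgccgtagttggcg
Ndufb8, chr19:44555443-44555562, minus strand: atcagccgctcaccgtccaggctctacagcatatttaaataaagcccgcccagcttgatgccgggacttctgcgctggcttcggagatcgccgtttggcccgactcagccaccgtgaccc

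Sequencing depth was between 19921398 and 37917806 counts per library, and each member had at least 361 counts in each library, so counting error is small beside the spread between animals. Gch1 averaged 10.7 ± 0.97 cpm (TMM-scaled counts relative to library size, SD, n = 6) in WT libraries against 5.48 ± 0.86 cpm in cmGch1 KO libraries, with a log2 fold change of -0.96 and an FDR of 0.000688 in edgeR's quasi-likelihood test, and its groups did not overlap. Cardiomyocyte markers dominated the marker lists in all libraries. cmGch1 KO 2 and cmGch1 KO 3 stood apart: they had 86.7 to 99.1 cpm of Xist, against at most 0.234 cpm in the other 10 libraries, and no counts of the 4 Y-linked genes examined, which allows up to 0.151 and 0.138 cpm per gene (3 counts, counting error only). The same pair had the lowest shares of mitochondrially encoded counts, 14.9% and 16.1%, against 18.3% to 22.9% elsewhere. The other 10 libraries held 166.9 to 192.3 cpm of the 4 Y-linked genes together. Read by these genes alone, cmGch1 KO 2 and cmGch1 KO 3 were female and the other 10 male. Both belong to the cmGch1 KO group, so the genotypes were not balanced in sex-linked expression. The labels give no sex, and the paper's general methods describe sex-matched mice of both sexes.

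All 35 members passed the filter on low values and were tested, and no member was called in either direction at an FDR under 0.05 by edgeR's quasi-likelihood test. Over all 11225 tested genes, 0.445% were called lower and 0.677% higher in cmGch1 KO. Each of the 35 log2 fold changes was below 0, with a median of -0.14 and a range of -0.27 (Ndufs4) to -0.03 (Ndufv1). Among all tested genes, 53.3% were below 0 and the median was -0.01. The 35 values are not independent, because the members share the same 12 libraries and move together in them. For 34 of the 35 the change was smaller than 2 standard errors, the FDR lay between 0.369 and 0.959, and the groups overlapped for each member (over all tested genes, 1.87% did not overlap). At an unadjusted p under 0.05 there was 1 member, Ndufa9, where 4.51% of the tested genes were lower at that level. In bulk tissue, fewer cardiomyocytes and less RNA per cardiomyocyte cannot be told apart. The part of the library pattern, described further on, in these values was not tested.

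**Figure D1:**
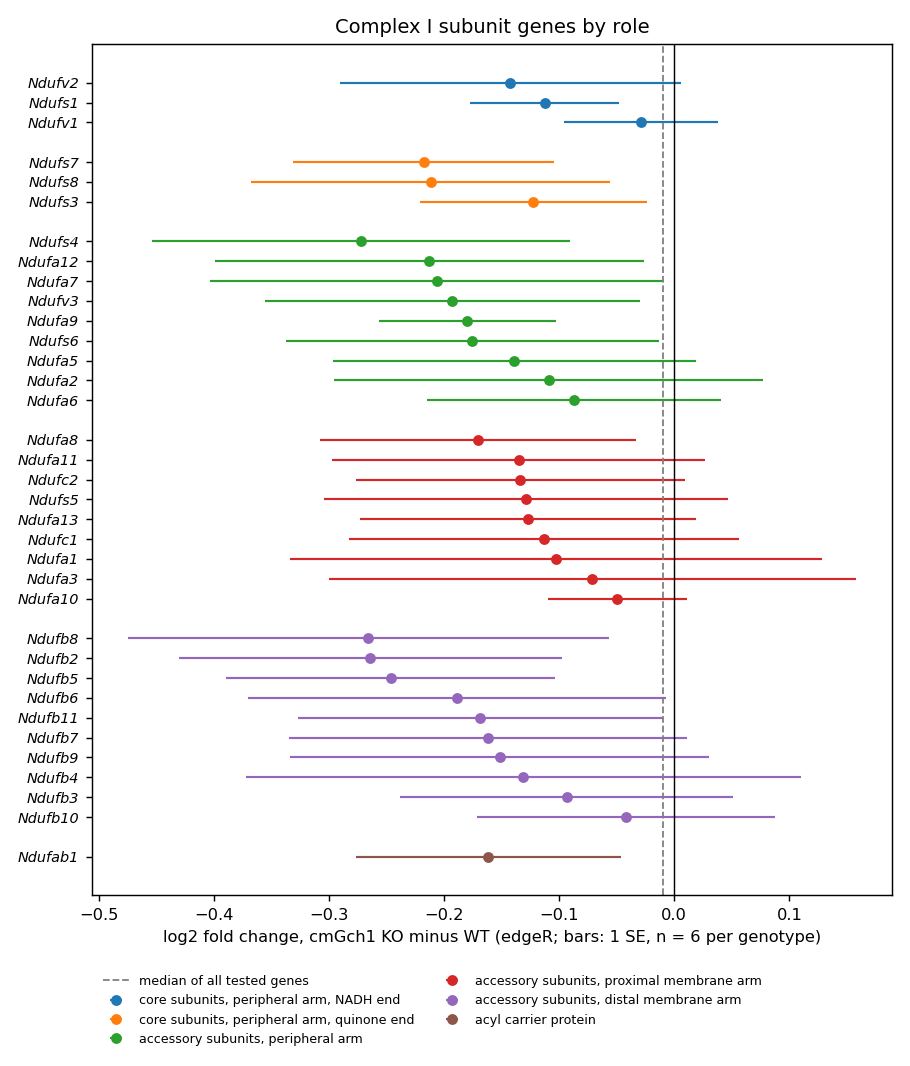
Log2 fold change of each complex I gene (cmGch1 KO minus WT; points with bars of 1 SE, n = 6 per genotype), grouped by role; the dashed line is the median of all 11225 tested genes. All 35 points lie left of 0, between -0.27 and -0.03, and 18 of the 35 bars reach 0.

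The count of 35 rested in part on single libraries and on the scaling. Without cmGch1 KO 4, 31 members were below 0 and the median was -0.09; Ndufa1, Ndufa2, Ndufa3 and Ndufa6 were then above 0. The median was -0.24 without cmGch1 KO 1, -0.10 without WT 1 and -0.07 without WT 4. Without both libraries that were high in Xist, all 35 were below 0 with a median of -0.20. With sex-linked expression as a covariate, all 35 were below 0 with a median of -0.18, and none was called. When counts were scaled by library size alone, 31 members were below 0 with a median of -0.07, and the median of all tested genes moved to 0.07.

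The core subunits at the NADH end of the peripheral arm included the members with the most counts, Ndufv1 and Ndufs1. Ndufv1, which binds NADH and the flavin that takes its electrons, had the log2 fold change nearest to 0. Its level in WT was between 798.9 and 946.1 cpm with a median of 829.0, and in cmGch1 KO between 746.4 and 911.5 cpm with a median of 820.7. The groups overlapped almost wholly, and the log2 fold change was -0.03 ± 0.07 (SE, FDR = 0.938). Ndufv2, which carries an iron-sulphur cluster beside the flavin, had 523.2 ± 113.8 cpm (SD, n = 6) in the WT group, against 474.0 ± 90.1 cpm for cmGch1 KO, and a log2 fold change of -0.14 with an SE of 0.15.

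Ndufs1, the largest subunit and the carrier of several iron-sulphur clusters, did not follow the library pattern of the others. Its levels in WT were 689.4 to 780.8 cpm with a median of 730.7, and in cmGch1 KO 630.2 to 759.0 cpm with a median of 664.7. cmGch1 KO 1, 2 and 3, at 639.0, 630.2 and 643.0 cpm, and cmGch1 KO 5, at 686.4 cpm, lay below each WT library, whereas cmGch1 KO 4, at 759.0 cpm, lay above 4 of the 6. The log2 fold change was -0.11 ± 0.06 (SE) with an FDR of 0.567, and the exact permutation test over all splits gave p = 0.0606 (two-sided, 1 of 35 members tested so; the smallest p possible is 0.00216).

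At the quinone end, Ndufs7, which holds the last cluster before ubiquinone, Ndufs8, which carries further clusters of the chain, and Ndufs3, which lines the path, had log2 fold changes below 0, none of them called. Ndufs7 averaged 336.5 ± 47.3 cpm in the WT group, against 289.4 ± 44.0 cpm for cmGch1 KO (log2 fold change -0.22, SE 0.11, FDR = 0.510). Ndufs8 had a log2 fold change of -0.21 with an SE of 0.16. Ndufs3 had a log2 fold change of -0.12 with an SE of 0.10. The median of the 3 was -0.21, against -0.11 for the 3 subunits of the NADH end. The standard errors of these members lay between 0.06 (Ndufs1) and 0.16 (Ndufs8), and the difference was not tested.

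Ndufa9, an accessory subunit at the junction of the arms with a fold like that of short-chain dehydrogenases, was the member with the smallest p-value. Its gene lies at chr6:126821721-126849136 (GRCm38, minus strand). WT libraries held 537.7 to 681.1 cpm with a median of 611.7, and cmGch1 KO libraries 506.0 to 632.8 cpm with a median of 525.2. Of the cmGch1 KO libraries, 4 lay below the lowest WT library, 1 lay just above it at 538.9 cpm, and cmGch1 KO 1, at 632.8 cpm, lay among the higher WT values. The log2 fold change was -0.18 ± 0.08 (SE), with an unadjusted p of 0.0342 and an FDR of 0.369 by edgeR, and the exact permutation test gave p = 0.0368 (two-sided, not adjusted for the 35 members). The FDR of Ndufa9 ranged from 0.0742 to 0.862 over the 24 alternatives.

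Ndufs4, an accessory subunit of the peripheral arm on which the stability of the NADH end depends, had the largest log2 fold change. Its gene lies at chr13:114287795-114388258 (minus strand). Among WT libraries, WT 1, WT 3 and WT 4 held 253.0, 256.7 and 287.2 cpm, and WT 2, WT 5 and WT 6 held 169.3, 177.2 and 157.3 cpm. cmGch1 KO 1 was at 263.7 cpm, and the other 5 cmGch1 KO libraries lay between 139.6 and 193.8 cpm. The range inside each genotype was larger than the difference between them, and the log2 fold change was -0.27 ± 0.18 (SE, FDR = 0.655). The remaining accessory subunits of this arm lay between -0.21 (Ndufa12, Ndufa7) and -0.09 (Ndufa6, which binds an acyl carrier protein), with Ndufv3 at -0.19, the zinc-binding Ndufs6 at -0.18, Ndufa5 at -0.14 and Ndufa2 at -0.11. Ndufa12 averaged 197.9 ± 43.8 cpm for WT against 170.8 ± 45.3 cpm for cmGch1 KO, a log2 fold change of -0.21 with an SE of 0.19. Ndufs6 held 282.1 ± 59.0 cpm in WT libraries and 249.9 ± 55.9 cpm in those of cmGch1 KO. For Ndufv3, a partner of the flavin subunits, the means were 162.3 ± 31.4 cpm (WT) against 142.1 ± 33.8 cpm (cmGch1 KO). These 3 had their lowest value in cmGch1 KO 4. Ndufa7 held 158.9 ± 43.1 cpm in WT libraries and 137.8 ± 39.8 cpm in those of cmGch1 KO. For Ndufa5 the means were 176.7 ± 26.6 cpm (WT) against 160.5 ± 37.8 cpm (cmGch1 KO). Ndufa2, which has a thioredoxin-like fold, ranged over 2.45-fold between libraries, with means of 128.5 ± 27.5 cpm in WT and 119.2 ± 33.0 cpm in the cmGch1 KO group. In each of these the standard deviations of the groups exceeded the difference of their means.

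**Figure D2:**
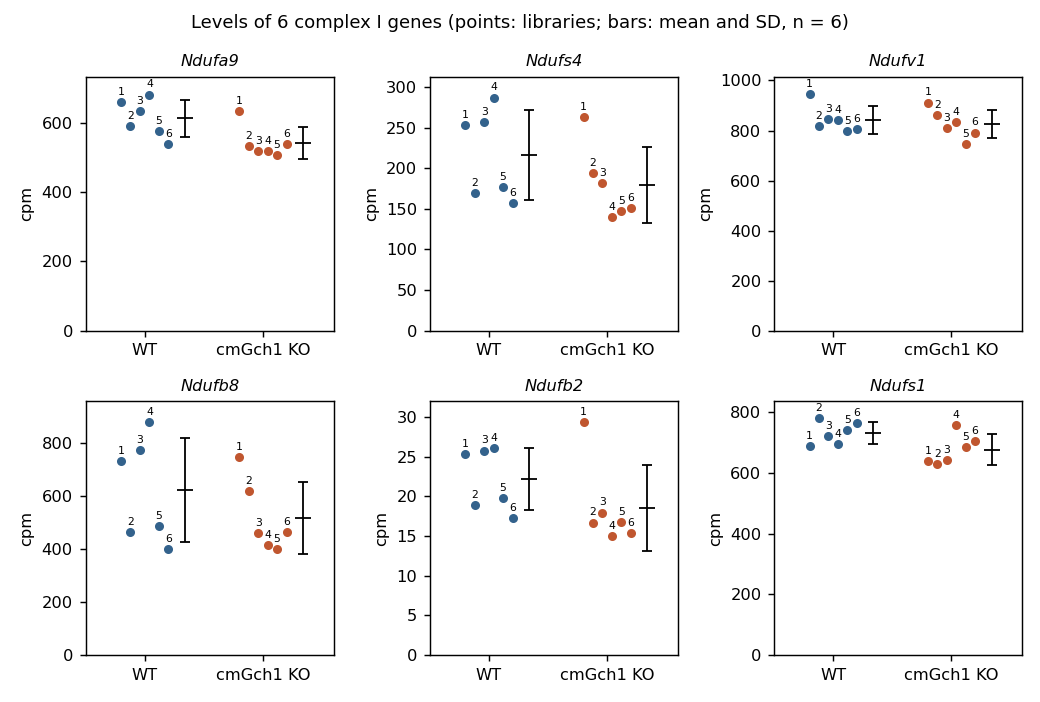
Level in cpm (TMM-scaled) of 6 complex I genes in each library, numbered by replicate, with mean and SD (n = 6). The groups overlap in each panel; Ndufs4, Ndufb8 and Ndufb2 show WT 1, WT 3, WT 4 and cmGch1 KO 1 at the top, and Ndufs1 shows these libraries in the lower part of their groups.

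In the proximal membrane arm, the 9 accessory subunits had a median log2 fold change of -0.13. The lowest was Ndufa8 (-0.17, SE 0.14), a subunit facing the intermembrane space, and the highest was Ndufa10 (-0.05, SE 0.06), which resembles nucleoside kinases. Ndufa10 was also the steadiest member, at 576.6 ± 26.1 cpm for WT, 557.2 ± 34.4 cpm for cmGch1 KO and a 1.17-fold range over all 12 libraries. Ndufa1, a small membrane subunit encoded on the X chromosome, was the least steady: it ranged from 40.2 cpm in cmGch1 KO 4 to 133.8 cpm in WT 4, a 3.32-fold range. Ndufa8 held 428.2 ± 90.0 cpm in WT libraries and 380.5 ± 58.1 cpm in those of cmGch1 KO. For Ndufa11, found where complex I meets complex III in supercomplexes, the means were 212.0 ± 43.7 cpm (WT) against 193.1 ± 46.5 cpm (cmGch1 KO). Ndufa13, also known as GRIM-19, averaged 282.6 ± 62.0 cpm for WT against 258.8 ± 44.2 cpm for cmGch1 KO, a log2 fold change of -0.13 with an SE of 0.15. WT 1 or WT 4 was the highest library for these 3, and cmGch1 KO 4 the lowest. Ndufs5, which like Ndufa8 has a twin cysteine fold, held 177.5 ± 39.7 cpm in WT libraries and 162.4 ± 41.2 cpm in those of cmGch1 KO. Ndufa3 ranged over 2.82-fold between libraries, with means of 113.3 ± 28.3 cpm in WT and 108.0 ± 37.9 cpm in the cmGch1 KO group. Ndufc1 and Ndufc2, small membrane subunits of the same region, differed in which library was lowest: cmGch1 KO 4 for Ndufc1 and WT 6 for Ndufc2. For Ndufc2 the means were 205.5 ± 44.4 cpm (WT) against 187.4 ± 31.4 cpm (cmGch1 KO).

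The 10 accessory subunits of the distal membrane arm had a median of -0.17 and ranged from -0.27 (Ndufb8) to -0.04 (Ndufb10). Ndufb8, whose protein is widely used as a marker of assembled complex I, had the highest level per length, at 836.8 cpm per kilobase of transcript, and lies at chr19:44548572-44555440 (minus strand). WT libraries held 397.6 to 876.9 cpm with a median of 609.0, and cmGch1 KO libraries 398.9 to 746.4 cpm with a median of 461.4. Both ranges began at nearly the same level, and the log2 fold change was -0.27 ± 0.21 (SE, FDR = 0.725). Ndufb5 had a log2 fold change of -0.25 with an SE of 0.14. Ndufb9, which binds an acyl carrier protein at the tip of this arm, held 522.6 ± 141.6 cpm in WT libraries and 470.5 ± 111.9 cpm in those of cmGch1 KO. For Ndufb10, a disulphide-bonded subunit facing the intermembrane space, the means were 513.9 ± 89.7 cpm (WT) against 499.3 ± 84.7 cpm (cmGch1 KO). Both sets of groups overlapped over most of their range. Ndufb4 ranged over 3.08-fold between libraries, with means of 154.6 ± 44.0 cpm in WT and 141.2 ± 54.9 cpm in the cmGch1 KO group. Ndufb6 held 152.3 ± 40.4 cpm in WT libraries and 133.7 ± 31.4 cpm in those of cmGch1 KO. For Ndufb11, encoded on the X chromosome, the means were 266.9 ± 56.4 cpm (WT) against 237.6 ± 53.0 cpm (cmGch1 KO). Ndufb3 and Ndufb7 had log2 fold changes of -0.09 and -0.16.

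Per kilobase of transcript the members spanned 44.7 to 836.8 cpm with a median of 280.9. Ndufb9, at 705.3 cpm per kilobase, and Ndufb10, at 692.1, followed Ndufb8, and Ndufv1, the member with the most counts, came next at 501.9. At the lower end Ndufv3, at 96.2, and Ndufs4, at 116.7, stood nearest to Ndufb2. The levels per length depend on the transcript chosen, and Ndufb9 and Ndufb10 differed by less than the spread between libraries.

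Ndufb2, a small subunit of the same region, had the lowest level per length, at 44.7 cpm per kilobase. Its gene lies at chr6:39592574-39603382 (plus strand), and 145 bases of its exons also belong to Gm42420, a gene model on the same strand without an entry in the count table. WT libraries held 17.3 to 26.1 cpm with a median of 22.6. cmGch1 KO libraries held 15.0 to 17.9 cpm in all but cmGch1 KO 1, which had the highest value of the 12 at 29.4 cpm, and the median was 16.7. The log2 fold change was -0.26 ± 0.17 (SE, FDR = 0.616), and without cmGch1 KO 1 it was -0.44 with an FDR of 0.079. The acyl carrier protein Ndufab1, which also serves mitochondrial fatty acid synthesis, averaged 367.4 ± 50.6 cpm for WT, against 328.5 ± 53.9 cpm for cmGch1 KO (log2 fold change -0.16, SE 0.12).

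Across libraries the members varied as a block. Over the 595 pairs of members, with genotype means removed, the median Pearson r was 0.865, and 62.5% of pairs had r over 0.8. These are correlations over 12 libraries that share depth and scaling, and are given as a description. Of the 35 members, 26 had their highest value in WT 4 and 26 had their lowest in cmGch1 KO 4. The median member lay 0.44 above its own mean in WT 4, 0.34 above in WT 1 and in cmGch1 KO 1, and 0.18 above in WT 3 (log2 scale). It lay -0.48 from its mean in cmGch1 KO 4, between -0.21 and -0.14 in WT 2, WT 5, WT 6, cmGch1 KO 5 and cmGch1 KO 6, and near 0 in cmGch1 KO 2 and cmGch1 KO 3. Ndufs1 ran against the others, with a median r of -0.84 to the other 34 members. Ndufa10, Ndufs1 and Ndufv1 varied little, with standard deviations inside a genotype of 0.08, 0.09 and 0.09 on the log2 scale, where the median member had 0.31 and Ndufa1 0.49.

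**Figure D3:**
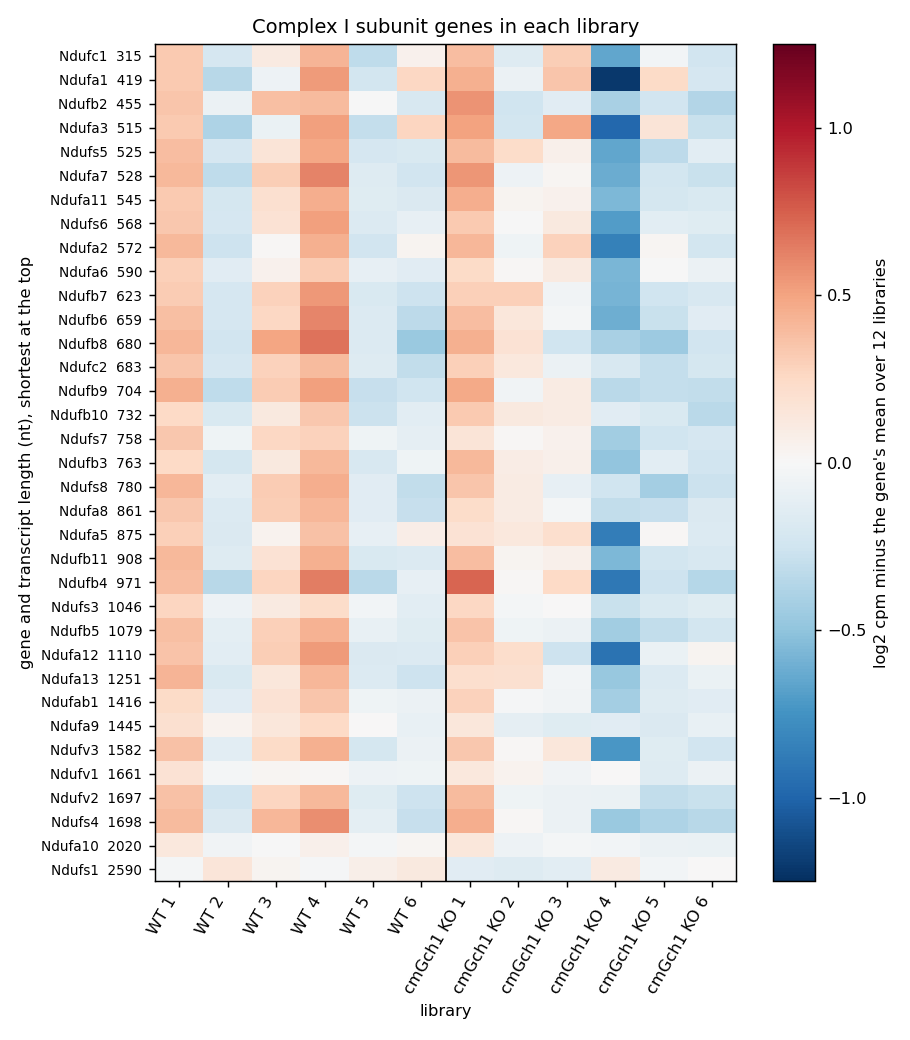
Deviation of each complex I gene from its own mean over 12 libraries (log2 cpm, colour) with genes ordered by transcript length. WT 1, WT 3, WT 4 and cmGch1 KO 1 are high and cmGch1 KO 4 is low in nearly all rows. Among the longer transcripts, Ndufs4 at 1698 nt shows this fully, Ndufv1 and Ndufa10 show little of it, and Ndufs1 is reversed.

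The library pattern was set beside transcript length. All members had transcripts between 315 and 2590 nt, with a median of 763 nt, below the median of 2836.5 nt of the tested genes. Length here is that of the shortest principal transcript in the annotation. Among the members, a longer transcript went with a smaller spread inside a genotype (Spearman rho -0.53 across 35 genes, which are not independent). The 490 other tested genes under 750 nt lay 0.36 above their means in WT 4, 0.38 above in cmGch1 KO 1 and -0.38 from them in cmGch1 KO 4 (medians, log2 scale), and the 2023 genes of 5000 nt and over lay at -0.14, -0.21 and 0.05. The members under 750 nt lay at 0.50, 0.40 and -0.60 in WT 4, cmGch1 KO 1 and cmGch1 KO 4. In longer transcripts up to 2500 nt, the median of the members showed more of the pattern than that of other genes. Ndufv1 and Ndufa10 showed little of it, and Ndufs1 ran against it. Between 1500 and 2500 nt, the medians of the 5 members were 0.41 in WT 4, 0.36 in WT 1 and 0.34 in cmGch1 KO 1. For the 2600 other genes they were 0.06, 0.09 and 0.11. Of the 5, Ndufv1 and Ndufa10 lay at 0.02 and 0.07 in WT 4, near the other genes. In cmGch1 KO 4 the median of these 5 was -0.09, with values from -0.73 (Ndufv3) and -0.46 (Ndufs4) to 0.00 (Ndufv1). Their median standard deviation inside a genotype was 0.29, against 0.18. Between 1000 and 1500 nt, the 6 members lay at -0.43 in cmGch1 KO 4, against -0.07 for 1146 other genes. The part of transcript length in the pattern was not tested.

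Of the other genes under 750 nt, 72.9% had a log2 fold change below 0 with a median of -0.08, whereas the 16 members of that length had a median of -0.13. Between 750 and 1000 nt the medians were -0.04 for 438 other genes and -0.17 for 7 members, between 1000 and 1500 nt -0.03 for 1146 genes and -0.17 for 6 members, and between 1500 and 2500 nt 0.00 for 2600 genes and -0.14 for 5 members. In each of these classes all members were below 0. When an offset for transcript length was fitted in each library, an alternative chosen after seeing the data, the median of the members was -0.10, 32 of 35 were below 0 and none was called. Ndufa9 was then at -0.16 with an FDR of 0.0742, the lowest FDR of any member under any alternative.

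**Figure D4:**
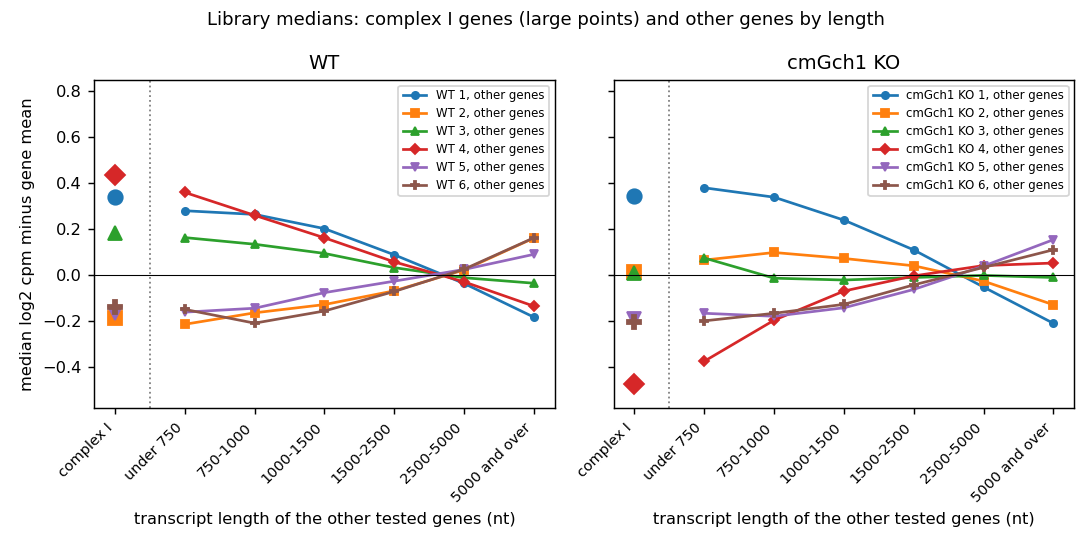
Median deviation from the gene mean (log2 cpm) in each library for the 35 complex I genes (large points) and for other tested genes in 6 classes of transcript length (small points joined by lines). The complex I genes and genes under 750 nt are both high in WT 1, WT 4 and cmGch1 KO 1 and low in cmGch1 KO 4, by 0.44 against 0.36 in WT 4; the spread of the lines narrows with length up to 5000 nt.

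Markers of the cell types of the ventricle were measured beside these genes. The summed level of 8 cardiomyocyte markers was 56610 to 60490 cpm in WT and 51460 to 57260 cpm in cmGch1 KO. Of the 8, 7 had a log2 fold change below 0, with a median of -0.14, as in the complex I genes. None was called. The median cardiomyocyte marker lay at 0.08, 0.08 and 0.10 in WT 1, WT 3 and WT 4 (log2 scale). It lay at -0.07 in cmGch1 KO 1, where the complex I genes lay at 0.34, and at -0.10 in cmGch1 KO 4. These medians hide markers that moved in opposite ways. Myl2 lay at 0.41 in cmGch1 KO 1 and -0.52 in cmGch1 KO 4, Tnni3 at 0.20 and -0.33, and Pln at 0.20 and -0.16. Myh6 lay at -0.55 and 0.20, and Ryr2 at -0.58 and 0.12. Ttn, Tnnt2 and Actc1 lay between -0.18 and -0.02 in both libraries. The median r of these markers to the members was 0.28, with single pairs from -0.90 to 0.98. The 4 macrophage markers were all above 0 with a median of 0.32. They summed to 76.8 to 95.8 cpm in WT and 95.5 to 116.3 cpm in cmGch1 KO. All 4 had an unadjusted p under 0.05 by edgeR's quasi-likelihood test, where 787 of the 11225 tested genes were higher at that level. Their FDR lay between 0.193 (Adgre1) and 0.430 (C1qa), and none was called. The 4 blood cell markers, all globin genes, summed to 380.9 to 1124 cpm in WT and 419.5 to 904.1 cpm in cmGch1 KO. All 4 were below 0 with a median of -0.40, and none was called. Their median deviations were 0.38, 0.87, 0.57 and 0.51 in WT 1, WT 3, WT 4 and cmGch1 KO 1 and -0.67 in cmGch1 KO 4 (log2 scale). Their median r to the members was 0.63 over 12 libraries. For endothelial markers it was -0.60, for atrial 0.43, for fibroblast 0.29, for macrophage 0.28, and for smooth muscle and pericyte markers 0.165. The globin transcripts are short, from 554 nt (Hba-a2) to 703 nt (Hbb-bt), and so fall in the class under 750 nt. Fibroblast markers summed to 498.5 to 652.0 cpm in WT and 528.7 to 696.0 cpm in cmGch1 KO, and endothelial markers to 543.9 to 740.9 cpm and 619.9 to 764.9 cpm. Acta2, an actin of smooth muscle, rose from 125.5 ± 14.2 to 198.7 ± 31.9 cpm (FDR = 0.00672), and Nppa, the atrial natriuretic peptide, from 152.2 ± 64.5 to 439.5 ± 165.6 cpm (FDR = 0.0240); these were the called genes of the marker lists. The other smooth muscle and pericyte markers were at -0.40 (Tagln), -0.24 (Myh11), -0.06 (Rgs5) and 0.12 (Pdgfrb), with a list median of -0.06. Of the other atrial markers, Sln was at -0.36, Myl7 at 0.11 and Myl4 at 0.17. The 4 together held 74.3 to 545.5 cpm in WT and 246.0 to 742.2 cpm in cmGch1 KO. Sln, Myl7 and Myl4 were each highest in WT 4 and lowest in WT 6, with ranges of 62.9-fold, 36.1-fold and 29.8-fold. The 5 markers of smooth muscle and pericytes held 846.5 to 951.3 cpm and 867.4 to 1003 cpm, and the 3 of adipocytes at most 2.97 cpm. The 4 of skeletal muscle held 204.4 to 313.7 cpm and 251.4 to 677.3 cpm. That sum was nearly all Acta1, at 302.5 of 302.8 cpm in WT 1 and 676.6 of 677.3 cpm in cmGch1 KO 2. Acta1 was the 1 skeletal muscle marker that passed the filter, with a log2 fold change of 0.78 and an FDR of 0.118. The part of these markers in the values of the complex I genes was not tested.

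The mitochondrially encoded subunits, which form the proton-pumping core of the complex, did not share the library pattern. Their 7 genes had a median log2 fold change of -0.05, from -0.17 (mt-Nd1) to 0.04 (mt-Nd6), and 4 of the 7 were below 0. Their summed level was lowest in cmGch1 KO 2 and cmGch1 KO 3, at 52190 and 61920 cpm, and lay between 65450 and 91480 cpm elsewhere. With genotype means removed, the median r between members and these genes was -0.32 over the 12 libraries. With the mitochondrial share as a covariate the median of the nuclear members was -0.21, all 35 were below 0 and none was called.

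Assembly factors build the complex and are not part of it. Of 18 measured, 17 had a log2 fold change below 0 and none was called; their median was -0.05, and they ranged from -0.30 (Ndufaf6, 18.9 ± 3.8 cpm for WT, 15.3 ± 2.9 cpm for cmGch1 KO, FDR = 0.454) to 0.01 (Dmac1). The factors that regulate respiratory genes had a median of -0.01 over 8 genes, from -0.26 for the coactivator Ppargc1a (FDR = 0.606) to 0.10 for Ppargc1b. Nrf1, Gabpa, Esrra and Yy1, whose motifs were searched in the promoters, were at 0.05, -0.03, -0.13 and 0.00, none of them called. Members with and without the nuclear respiratory factor 1 motif had medians of -0.13 (8 genes) and -0.17 (24 genes). The medians with and without a match were -0.18 and -0.14 for the ETS motif, -0.13 and -0.16 for the oestrogen-related receptor half-site, and -0.18 and -0.14 for the YY1 motif. The median standard deviation inside a genotype (log2 scale) was 0.32 with and 0.31 without the nuclear respiratory factor 1 motif. With and without a match it was 0.32 and 0.31 for ETS, 0.35 and 0.31 for the half-site, and 0.32 and 0.31 for YY1.

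All 4 of complex II, 9 of complex III, 12 of complex IV and 14 of complex V had log2 fold changes below 0, with medians of -0.14, -0.17, -0.17 and -0.13, and none was called. The lowest and highest were Sdhc (-0.17) and Sdha (-0.09) in complex II, Uqcrc1 (-0.20) and Uqcrh (-0.11) in complex III, Cox7a1 (-0.40) and Cox6b1 (-0.08) in complex IV, and Atp5g1 (-0.20) and Atp5k (-0.01) in complex V. Uqcrc1, a core protein of complex III, was the 1 gene among them below 0.05 before adjustment, with an FDR of 0.366 by edgeR's quasi-likelihood test. In the exact permutation test, run for all 39 genes and not adjusted, Uqcrc1 had p = 0.0433. In complex V the same permutation test gave p = 0.00866 for Atp5b and p = 0.00216, the smallest possible, for Atp5a1. The groups of Atp5a1 did not overlap, at 4168 to 4401 cpm in WT and 3832 to 4038 cpm in cmGch1 KO, and its log2 fold change was -0.10 with an FDR of 0.518 by edgeR. Atp5a1 and Atp5b were named after their values were seen. Their median r to the complex I members was 0.81, 0.88, 0.87 and 0.84 in complexes II to V. The difference between complex I and the other complexes was not tested.

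**Figure D5:**
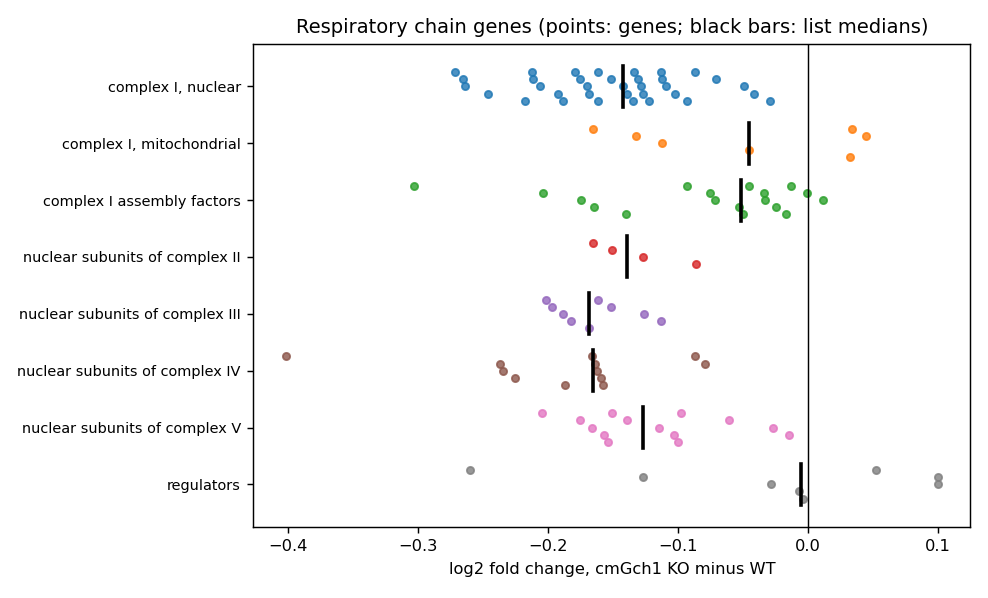
Log2 fold change (cmGch1 KO minus WT) of each tested gene in the lists of respiratory chain genes, with list medians as black bars. Complex I has a median of -0.14 and complexes II to V lie between -0.17 and -0.13; the mitochondrially encoded subunits, assembly factors and regulators have medians between -0.05 and -0.01.

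Some members share sequence or position with other genes, which limits what their counts can tell. Of their 50-base words, Ndufs5 shares 21.7% with BC002163, Ndufb4 18.3% with Ndufb4c, Ndufa12 17.7% with Gm15920 and Ndufs3 16.0% with Gm12251, all annotated as processed pseudogenes on other loci. On the same strand, Ndufb8 shares 134 exon bases with Gm20538 and Ndufb9 201 with Gm49356. Exons of Ndufb6 overlap Smim27, those of Ndufa13 overlap Tssk6 and those of Ndufb5 overlap Mrpl47 on the opposite strand, and the strand setting of the counting is not given in the sources used here.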

How the data were processed

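RNA from left ventricles of 6 WT and 6 cmGch1 KO mice was sequenced by the authors in stranded paired-end libraries made with dUTP. Per the paper's methods and the submitters' processing notes, reads were aligned to GRCm38 with HISAT2, processed with SAMtools and Picard and counted with featureCounts; versions, the annotation and the strand setting are not given in the sources used here. The authors deposited raw counts per Ensembl gene, which were used as deposited, and a second table of normalized values on a log2-like scale, made by the authors with a tool not given in the sources used here, which served only as an alternative with limma.

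Symbols came from GENCODE M21. Genes that exceeded 3 cpm in 6 or more libraries were tested with edgeR 4.0.16 in R 4.3.3 (TMM, quasi-likelihood test, genotype only), with Benjamini-Hochberg adjustment over all 11225 tested genes and a threshold of 0.05. Exact permutation tests used all splits of 6 against 6 libraries on TMM-scaled cpm. The fit was tested on simulated data. Levels per length and length classes used the shortest APPRIS principal transcript, or the longest transcript where none is marked. Overlap of groups means that the ranges of cpm of the 2 genotypes meet.

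Alternatives were DESeq2 1.42.0 size factors and its Wald test, library size with and without mitochondrial genes, other filters, covariates (replicate number, sex-linked expression, mitochondrial share), each library left out, limma 3.58.1 on the deposited log2 values, and a transcript length offset added after seeing the data. Genes named with values in each library were those with an unadjusted p under 0.05, the largest and smallest difference, and the highest and lowest level per length. The library values of Ndufs1, Ndufa10 and Ndufa1 were added after their values were seen. Of the other lists, genes called and the lowest and highest of each respiratory list are named. Single cardiomyocyte, skeletal muscle and atrial markers were named after their values were seen. Ndufs7, Ndufv2 and the other members are named as members. The members, the lists and the rule were chosen with earlier results of these data known. The symbols Coa1 and Atp5pb matched no gene in the table.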

Additional observations from a re-analysis of the deposited data

Results flagged for a closer look

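Of 70 groups of 6 values (35 members in each genotype), 5 held 1 library far from the other 5 by Dixon's criterion; chance marks about 1 group in 20. In cmGch1 KO 1, Ndufa9 was at 632.8 cpm, where the next highest cmGch1 KO library was at 538.9 cpm. The same library stood above its group for Ndufa10 (625.2 cpm, next 555.5 cpm), Ndufb2 (29.4 cpm, next 17.9 cpm) and Ndufv2 (645.4 cpm, next 471.8 cpm). Ndufv1 was at 946.1 cpm in WT 1, next to 845.0 cpm. cmGch1 KO 1 was also the library in which other short transcripts were highest within its genotype.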

How the results depend on the processing

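No member was called in either direction under any of the 24 alternatives, and the median of the members stayed below 0 in all of them, from -0.24 (without cmGch1 KO 1) to -0.07 (library size alone). Leaving out each library in turn gave medians from -0.24 to -0.07 and 31 to 35 members below 0. Of 840 member values, 18 changed sign. At an unadjusted p under 0.05 there were 7 members without cmGch1 KO 1 and 4 with the transcript length offset, in place of 1; the cause was not tested. DESeq2's Wald test called none. With the replicate number as a replicate block the median was -0.16, 35 members were below 0, 3 (Ndufa9, Ndufb2 and Ndufs7) had an unadjusted p under 0.05 and none was called. Libraries of the same number correlated between -0.13 and 0.68, and 3 of the 6 numbers (0.68, 0.40 and 0.51 for numbers 1, 5 and 6) correlated best with their own, a hint from the data and not the design. The other 3 lay between -0.13 and -0.08, so the numbers were not taken to pair the samples. Over all tested genes the offset called 134 lower and 159 higher, against 50 and 76, DESeq2's Wald test 155 and 218, the replicate block 76 and 112, and the fit without both libraries high in Xist 18 and 16. Depth did not limit the members, whose lowest count was 361; the spread between libraries did, with a median SE of 0.16.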
